A study of Mus musculus with 4 samples.

Results

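The Schlafen and Ly6 families are gene clusters expressed in blood cells, and interferon induces many of their genes. The members described here were 9 genes picked by symbol from a table of 27179 genes: Slfn1, Slfn2, Slfn3, Slfn5 and Slfn8 of the Schlafen family, and Ly6a, Ly6c1, Ly6c2 and Ly6e of the Ly6 family. RNA sequencing measured them in regulatory T cells (Treg cells, labelled CD4+Foxp3+) of steady-state C57BL/6 mice, with spleen plus peripheral lymph nodes as the tissue. There were 2 libraries labelled WT and 2 labelled P65KO, the latter described as deficient in RelA (p65), an activating subunit of NF-kB. No source used here gives the way RelA was removed, the age of the mice or the number of mice behind a replicate. The comparison asks which transcripts of Treg cells differ between the P65KO-labelled and the WT libraries, which also differ in sex-linked transcripts. All 9 members passed the filter on low counts.

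Schlafen proteins are grouped by length. Slfn1 and Slfn2 encode short proteins, Slfn3 an intermediate one, and Slfn5 and Slfn8 long proteins that carry an added helicase-like region. Slfn1 slows T cell growth when it is forced on, and T cells that lack working Slfn2 fail to stay quiescent. Ly6 proteins are small surface molecules with a finger-like fold, held in the membrane by a lipid (GPI) anchor. Ly6a (Sca-1) marks blood stem cells and rises on activated T cells, Ly6c1 and Ly6c2 together encode the antigen Ly-6C of monocytes and of some T cells, and Ly6e (TSA-1) is an early thymocyte antigen.

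The members did not move as a block. In the P65KO-labelled libraries Ly6c1 was 2.995-fold higher, and Slfn1 and Slfn5 were 1.46-fold and 1.38-fold higher. Ly6a was 1.78-fold lower, Ly6e 1.30-fold and Slfn8 1.26-fold lower. Slfn2, Slfn3 and Ly6c2 did not pass the test. Thus 6 of 9 members passed (edgeR, with p-values from its quasi-likelihood test adjusted by the Benjamini-Hochberg (BH) method, threshold 0.05), beside 20.7% of the 11172 genes tested. The 3 members that rose stand beside 9.0% of all genes that rose, and the 3 that fell beside 11.7% that fell. These shares are over genes of all levels. By mean RPKM, Ly6e, Slfn2, Ly6a, Slfn1 and Ly6c1 stood at percentiles 88 to 99.4 of the genes tested, and the others at 26.3 to 74.1. The members were also chosen with earlier results of these data known. The part of level and of this choice in the count was not tested. The median log2 difference of the members was 0.04, and that of all genes tested was 0.00. The calls of Slfn1, Ly6a and Ly6c1 held in all 11 other settings tried, whereas those of Slfn5, Slfn8 and Ly6e depended on the setting, as given with each gene. With no filter on low counts 3 members passed (beside 4.76% of all genes), and 3 passed without WT replicate 2 (beside 8.20%) or without P65KO-labelled replicate 1 (beside 15.0%).

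**Figure D1:**
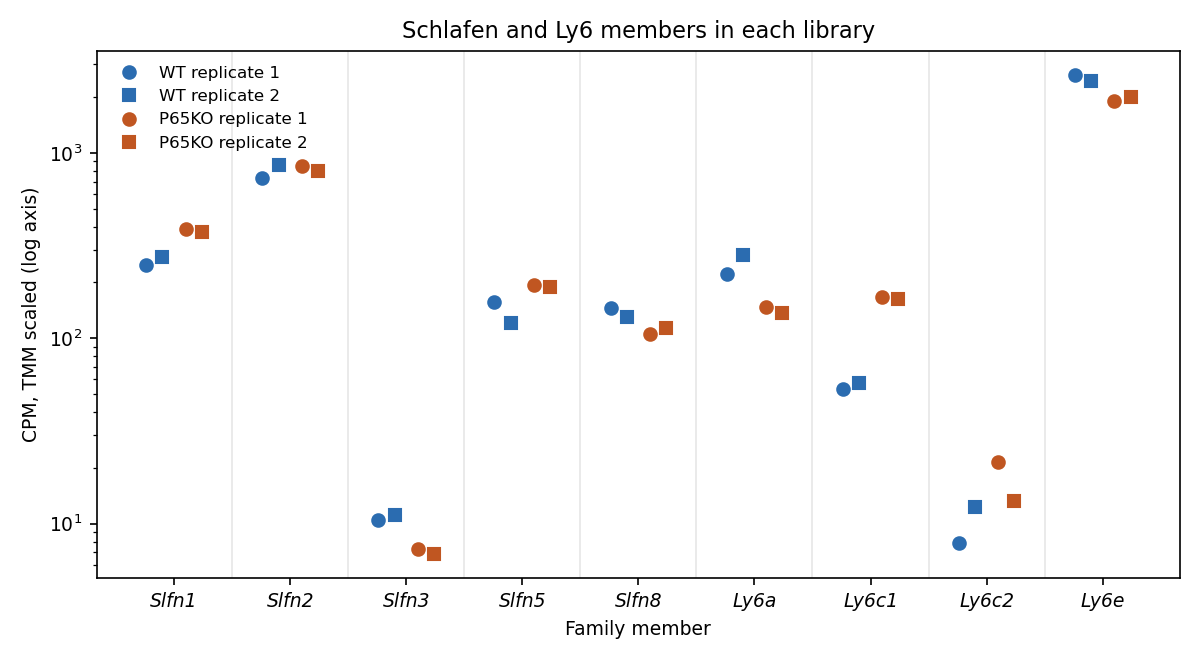
Library-scaled counts (CPM, TMM-scaled) of each member in each of the 4 libraries on a log axis; circles are replicate 1 and squares replicate 2. Ly6c1 lies between 53.2 and 57.5 CPM in WT and between 164 and 168 CPM in P65KO-labelled libraries, whereas Slfn2 overlaps between the groups.

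Several facts of the libraries stand behind every value. Rela, the targeted gene, had 875 and 806 counts in WT against 820 and 909. A count over the whole gene includes exons outside a deleted part, so this neither supports nor contradicts the label. Totals were 4513863 to 4624230 counts per library. Xist had 494 and 608 counts in WT against 0 and 2, while Ddx3y of the Y chromosome had 0 and 0 against 302 and 404. For every gene, the members included, the genotype label and the sex of the mice therefore cannot be told apart. The defining markers Cd4 (4371 to 5313 counts) and Foxp3 (1724 to 2385 counts) were read in all 4 libraries and did not pass the test, while of all 9 Treg-defining markers tested 4 fell and 1 rose (median log2 -0.23; sums of 5882 and 5927 CPM in WT against 4968 and 5346). Erythroid and platelet markers summed to 21.7 and 28.8 CPM in WT against 112 and 193 (4 of 4 tested rose). B and plasma cell markers summed to 1162 and 1161 CPM in WT against 960 and 547 (4 of 5 tested fell). Beside these marker counts, 9.0% of all genes tested rose and 11.7% fell. The part of these markers in the values of the members was not tested. Replicates may be technical, and p-values then measure only the spread between these libraries. In bulk samples, fewer cells that express a gene and less RNA per cell cannot be told apart.

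The Schlafen members lie together on chromosome 11 of GRCm38, from Slfn5 at 82951349 to Slfn3 at 83215154, and the Ly6 members on chromosome 15, from Ly6e at 74955025 to Ly6c2 at 75112066. Promoter windows of 300 bases from RefSeq (GRCm38.p6) were found for 7 of the 9 members, all but Ly6a and Ly6e. Both strands were searched for 3 motifs: GAAA, any 2 bases and GAAA again (the core of the interferon-stimulated response element), TTCNNNGAA (the site of activated STAT dimers), and GGG, any 5 bases and CC (a loose form of the NF-kB site). Shown here are the members that differ in direction or in motif, 5′ to 3′ on the strand of the gene, with bases left out that lie in GENCODE exons or in RefSeq gene span beyond them and motif matches in capitals. The Slfn5 stretch is chr11:82951852-82951984 (plus strand), Slfn8 chr11:83020811-83021060 (minus), Slfn1 chr11:83116570-83116819 (plus) and Ly6c1 chr15:75048921-75049087 (minus).
Slfn5: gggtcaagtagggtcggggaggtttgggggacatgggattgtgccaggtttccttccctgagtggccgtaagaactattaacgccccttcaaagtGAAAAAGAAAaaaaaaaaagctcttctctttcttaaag
Slfn8: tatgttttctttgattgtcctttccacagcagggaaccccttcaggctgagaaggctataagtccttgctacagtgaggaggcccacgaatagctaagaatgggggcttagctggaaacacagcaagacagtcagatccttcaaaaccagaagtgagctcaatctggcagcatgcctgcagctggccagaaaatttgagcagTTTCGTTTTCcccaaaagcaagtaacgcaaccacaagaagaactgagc
Slfn1: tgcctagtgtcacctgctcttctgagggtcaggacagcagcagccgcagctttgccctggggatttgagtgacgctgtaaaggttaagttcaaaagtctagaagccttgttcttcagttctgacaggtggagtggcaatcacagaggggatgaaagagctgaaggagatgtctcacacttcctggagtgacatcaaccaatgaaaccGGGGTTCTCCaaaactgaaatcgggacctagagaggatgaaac
Ly6c1: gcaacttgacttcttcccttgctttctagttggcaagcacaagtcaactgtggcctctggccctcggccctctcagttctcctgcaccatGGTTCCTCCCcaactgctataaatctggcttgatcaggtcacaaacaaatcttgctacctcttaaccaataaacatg

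The interferon core stood in the windows of Slfn5, 155 bases before the start used for the window, and of Slfn8, 48 bases before it. That start of Slfn5 lies inside the span of the gene, downstream of its outermost start at 82951349, and the stretch shown is intronic to a GENCODE transcript that begins there. Of all 32851 promoter windows, 3.44% held it. These genes of 1 cluster held the same motif, and Slfn5 rose where Slfn8 fell, with calls that depended on the setting. The part of the motif in either value was not tested. The STAT motif, held by 8.3% of all windows, was in none of the windows of the 7 members, which says only that these letters are not there. The loose NF-kB motif stood in windows of Slfn1, Ly6c1 and Ly6c2, and in 50.8% of all windows. In Ly6c2 the overlapping matches lay 37 and 38 bases downstream of a listed start, and its other window held none. At another listed start of Ly6c1, whose window lies inside the span of the gene, overlapping matches stood 82 and 81 bases upstream. Slfn2 and Slfn3 held none of the 3 motifs. A match describes letters, not a bound site.

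Of the short Schlafen genes, Slfn1 (Entrez 20555; chromosome 11, 83116820 to 83122670) stood at 249 and 274 CPM in WT against 391 and 373 CPM in P65KO-labelled libraries. Both P65KO-labelled values lay above both WT values, and the gap was wider than the spread within either group. The means were 262 ± 17.8 and 382 ± 12.6 CPM (SD, n = 2 each; log2 0.54, SE 0.09; edgeR, BH-adjusted p = 0.00112). Slfn2 (Entrez 20556; chromosome 11, 83065112 to 83070678), the gene needed for T cell quiescence, stood at 735 and 864 CPM in WT against 848 and 799 CPM in P65KO-labelled libraries. The groups overlapped, and the WT replicates marked both ends of the range. Its log2 difference was 0.04 (SE 0.10; edgeR, BH-adjusted p = 0.818). Its 95% interval ran from -0.17 to 0.26, or 0.886-fold to 1.20-fold, so a change as large as the 0.54 of Slfn1 lay outside it. Leaving out a WT library moved the log2 value of Slfn2 to -0.07 or 0.17, and it passed the test in none of the other settings.

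The intermediate gene Slfn3 (Entrez 20557; chromosome 11, 83191330 to 83215154) was the lowest member by RPKM, with 48 and 52 counts in WT against 33 and 31 in P65KO-labelled libraries. These are 10.4 and 11.2 against 7.28 and 6.86 CPM. The groups did not overlap, as for 8 of the 9 members, beside 60.5% of all genes tested. The log2 difference of -0.61 (SE 0.26; 95% interval -1.18 to -0.04) did not pass after adjustment (edgeR, BH-adjusted p = 0.124). Its unadjusted p was 0.0371.

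The long Schlafen genes went apart. Slfn5 (Entrez 327978; chromosome 11, 82951349 to 82964850), a nuclear member of the family, stood at 157 and 121 CPM in WT against 194 and 188 CPM in P65KO-labelled libraries. The WT replicates differed from each other about as much as the nearer one differed from the P65KO-labelled libraries. The means were 139 ± 25.1 and 191 ± 4.29 CPM (SD, n = 2 each; log2 0.46, SE 0.12; edgeR, BH-adjusted p = 0.0141). Slfn8 (Entrez 276950; chromosome 11, 83002125 to 83020810) stood at 145 and 130 CPM in WT against 105 and 114 CPM in P65KO-labelled libraries, without overlap. Its log2 difference was -0.33 (SE 0.10; edgeR, BH-adjusted p = 0.0337). With no filter on low counts both calls ended at adjusted p of 0.148 for Slfn5 and 0.129 for Slfn8 (edgeR). Slfn5 also lost its call without WT replicate 2 (log2 0.29) and without either P65KO-labelled library, and Slfn8 with DESeq2 and without any 1 of the 4 libraries (edgeR, BH-adjusted p of 0.0712 to 0.211).

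Among the Ly6 genes, Ly6c1 (Entrez 17067; chromosome 15, 75044018 to 75048920) differed most. It stood at 53.2 and 57.5 CPM in WT against 168 and 164 CPM in P65KO-labelled libraries, and replicates were close in both groups. The means were 55.3 ± 3.03 and 166 ± 2.96 CPM (SD, n = 2 each; log2 1.58, SE 0.10; edgeR, BH-adjusted p = 4.21e-07). The absolute size of this difference stood at percentile 94.1 among all genes tested. Over the 11 other settings its log2 value ran from 1.53 to 1.64.

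Ly6c2 (Entrez 100041546; chromosome 15, 75108161 to 75112066), the near copy of Ly6c1, was read by far fewer counts, 36 and 57 in WT against 98 and 60 in P65KO-labelled libraries. These are 7.81 and 12.3 against 21.6 and 13.3 CPM. WT replicate 2 and P65KO-labelled replicate 2 were nearly level, and P65KO-labelled replicate 1 stood above the rest. The log2 difference was 0.80 (SE 0.28; 95% interval 0.18 to 1.41; edgeR, BH-adjusted p = 0.0657). Leaving out P65KO-labelled replicate 1 gave 0.40, and leaving out replicate 2 of that group gave 1.10, where it passed (edgeR, BH-adjusted p = 0.0142). Ly6c1 and Ly6c2 share sequence: 21.5% of the different 50-base stretches in the GENCODE transcripts of Ly6c1 also occur in transcripts of Ly6c2. No source used here says how such reads were counted, so the split of reads between these genes is uncertain.

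Ly6a (Entrez 110454; chromosome 15, 74994877 to 74998031), the gene of Sca-1, went the other way. It stood at 222 and 283 CPM in WT against 147 and 136 CPM in P65KO-labelled libraries, with every P65KO-labelled value below every WT value. The means were 252 ± 42.5 and 142 ± 7.87 CPM (SD, n = 2 each; log2 -0.83, SE 0.12; edgeR, BH-adjusted p = 0.0002845). The WT replicates were farther apart than the P65KO-labelled ones, and the log2 value was -0.65 without WT replicate 2 and -0.99 without WT replicate 1. Ly6e (Entrez 17069; chromosome 15, 74955025 to 74959904) was the highest member, at 2638 and 2443 CPM in WT against 1902 and 2007 CPM in P65KO-labelled libraries. The groups did not overlap, and the means were 2541 ± 138 and 1954 ± 74.1 CPM (SD, n = 2 each; log2 -0.38, SE 0.09; edgeR, BH-adjusted p = 0.0105). The call of Ly6e ended with no filter on low counts (edgeR, BH-adjusted p = 0.0700) and without any 1 of the 4 libraries (0.0503 to 0.134).

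Some members share sequence with other genes, which bears on how surely their reads can be assigned. Of the different 50-base stretches in GENCODE transcripts, 0.606% of those of Slfn1, 4.27% of Slfn2, 11.1% of Slfn5, 14.6% of Slfn8 and 16% of Slfn3 also occur in another gene. For Slfn8 the main partner was the pseudogene Slfn10-ps (10.1%), and for Slfn3 the neighbour Slfn4 (7.39%). For Slfn5 it was Slfn5os, a transcript of the opposite strand (7.38%), and the strand setting of the counting is not known. Of the Ly6 genes, Ly6c1 shared 32.8%, the highest share of the members, Ly6a 19%, Ly6c2 14.5% and Ly6e none. For Ly6a the main partner was Ly6c1 (15%), which rose where Ly6a fell.

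Because the members differ in length, their levels were set side by side as RPKM (reads per kilobase of transcript and per library total, scaled), from the deposited values. In WT the order of mean RPKM was Ly6e (1120), Slfn2 (487), Ly6a (309), Slfn1 (143), Slfn8 (34.8), Ly6c1 (34.1), Slfn5 (23.6), Ly6c2 (12.8) and Slfn3 (6.09). Slfn8 and Ly6c1 overlapped there, and the other neighbours did not. In P65KO-labelled libraries Slfn1 (202) stood above Ly6a (168), and Ly6c1 (98.8) and Slfn5 (31.4) stood above Slfn8 (26.8). Slfn8 and Ly6c2 (21.5) overlapped. Ly6e and Slfn2 kept the top places in both groups, with Ly6e at 833 and Slfn2 at 486 RPKM in P65KO-labelled libraries. By mean RPKM over the 4 libraries, Ly6e ranked 72 and Slfn2 163 among the 11172 genes tested.

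Ratios between members within a library do not depend on how libraries are scaled. The ratio of Ly6c1 to Ly6a RPKM was 0.120 and 0.102 in WT against 0.573 and 0.604 in P65KO-labelled libraries. Ly6a thus exceeded Ly6c1 by 8.31 and 9.77 times in WT but by 1.75 and 1.66 times in P65KO-labelled libraries. Slfn1 over Slfn2 was 0.304 and 0.285 in WT against 0.413 and 0.418 in P65KO-labelled libraries. Slfn5 over Slfn8 was 0.726 and 0.623 in WT, below 1, and 1.23 and 1.11 in P65KO-labelled libraries, above 1. Groups did not overlap for any of these pairs, or for Ly6c1 over Ly6c2 (3.27 and 2.26 against 3.76 and 5.95). These ratios follow from the differences of the single genes and were not tested.

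**Figure D2:**
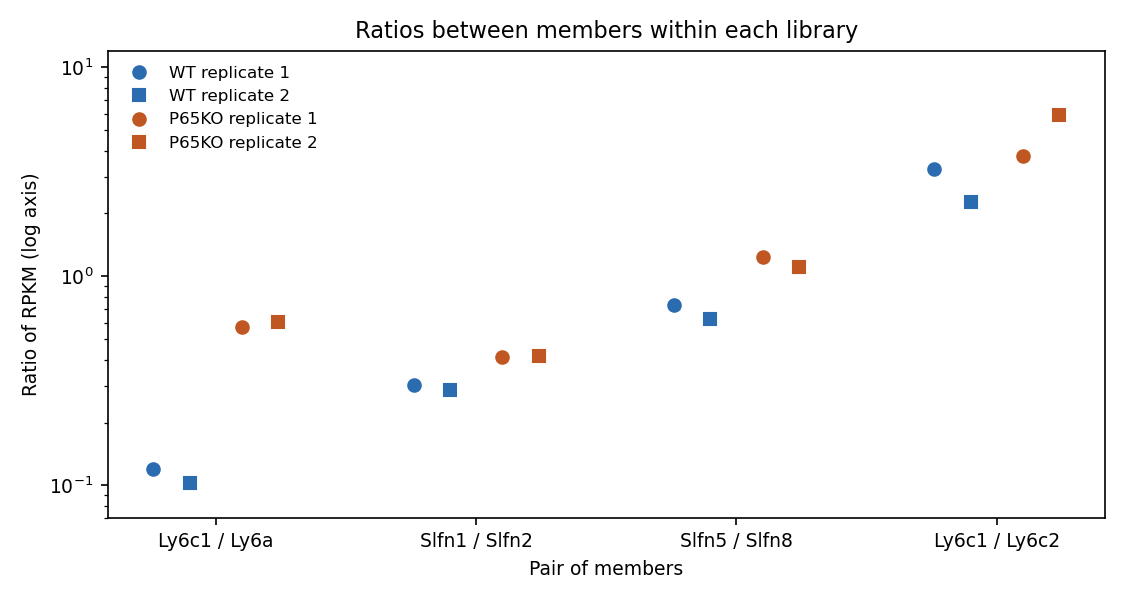
Ratio of RPKM between pairs of members in each of the 4 libraries on a log axis; circles are replicate 1 and squares replicate 2. The ratio of Ly6c1 to Ly6a lies at 0.102 and 0.120 in WT against 0.573 and 0.604 in P65KO-labelled libraries, the widest gap of the pairs plotted.

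Summed over the family, the Schlafen members reached 1296 and 1401 CPM in WT against 1546 and 1480 CPM in P65KO-labelled libraries. The Ly6 members reached 2922 and 2795 CPM in WT against 2239 and 2320 CPM in P65KO-labelled libraries. Neither CPM sum overlapped between groups, but per length the Schlafen sum did, at 657 and 731 RPKM in WT against 772 and 727 RPKM. The Ly6 sum is mostly Ly6e, which held 73.1% to 78.7% of the family's RPKM in WT and 72.9% to 75.7% in P65KO-labelled libraries. The share of Ly6c1 went from 2.22% and 2.40% to 8.99% and 8.62%, and that of Slfn1 among the Schlafen members from 20.8% and 20.4% to 26.9% and 27.0%.

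Other genes of the 2 families were mostly silent or too low to test. Of 35 relatives in the table, 21 had no count in any library and 6 were tested, of which 2 rose and 4 did not pass (edgeR). These stand beside 9.0% of all genes that rose and 11.7% that fell. The median log2 difference of the tested relatives was 0.31. Slfn9 and the pseudogene Slfn10-ps, which flank Slfn8, had 62 and 39 against 39 and 23 counts and 60 and 26 against 26 and 27 counts. Their log2 differences were -0.67 (SE 0.33) and -0.67 (SE 0.38), and for Slfn10-ps the value was 0.07 without WT replicate 1. Slfn4, a Schlafen gene of myeloid cells, had 3, 2, 1 and 1 counts, at or below the floor of 3 counts. Ly6k had 48 and 14 against 24 and 25 counts, so its WT replicates alone spanned the whole range. Lynx1, a modulator of nicotinic receptors, had 15 and 9 against 18 and 27 counts and did not pass (log2 0.93, SE 0.43).

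The relatives that rose were Lypd6b and Plaur, both at low counts. Lypd6b had 14 and 10 counts in WT against 33 and 25 in P65KO-labelled libraries (log2 1.30, SE 0.39; edgeR, BH-adjusted p = 0.0342). Plaur, the urokinase receptor of myeloid cells, had 1 and 5 counts in WT against 26 and 12 in P65KO-labelled libraries (log2 2.65, SE 0.68; edgeR, BH-adjusted p = 0.0152). Both calls ended with DESeq2, with no filter, and on leaving out either WT library or P65KO-labelled replicate 1. The log2 value of Plaur was then 1.94 without WT replicate 1, 4.11 without WT replicate 2 and 1.99 without P65KO-labelled replicate 1.

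**Figure D3:**
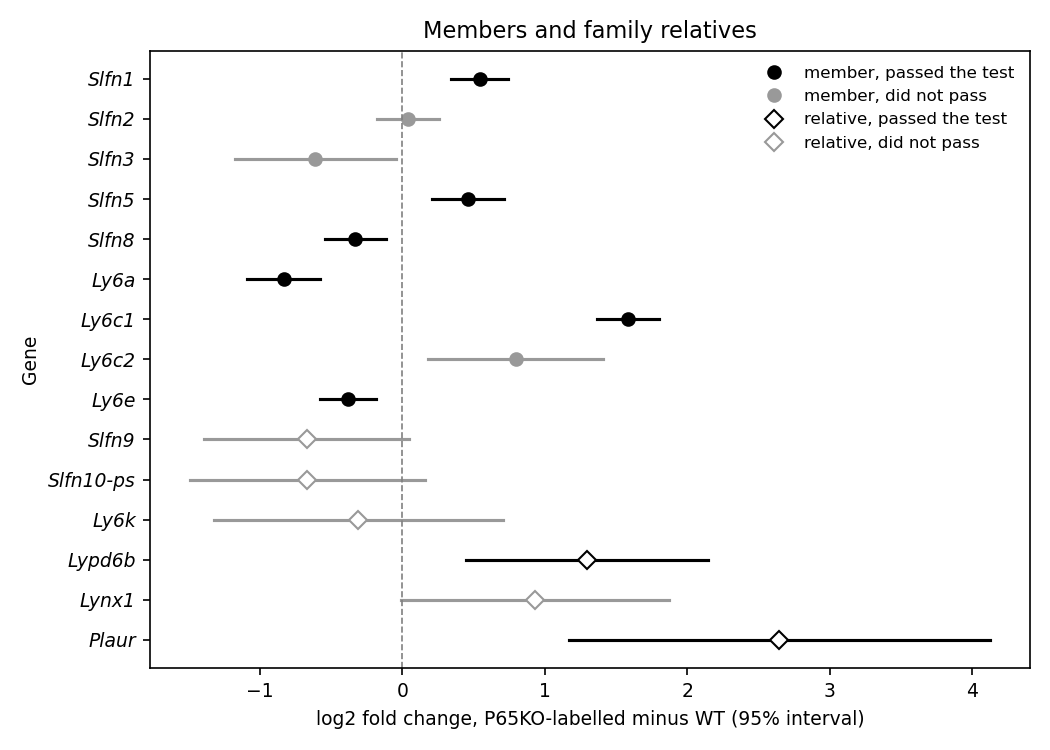
Log2 fold change of the 9 members (circles) and of the 6 relatives tested (diamonds), P65KO-labelled minus WT, with 95% intervals of the edgeR fit; black marks passed the test and grey ones did not. Of the genes that passed, Slfn1, Slfn5, Ly6c1, Lypd6b and Plaur lie above 0, and Slfn8, Ly6a and Ly6e below 0. Of those that did not, the intervals of Ly6c2 (0.18 to 1.41) and Slfn3 (-1.18 to -0.04) also leave out 0. Slfn2 is centred at 0.04.

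Myeloid transcripts differed between the groups as well, and both Ly6c2 and Plaur are known from myeloid cells. Of 17 tested markers of monocytes, macrophages and dendritic cells, 13 rose and 1 fell, beside 9.0% of all genes that rose and 11.7% that fell. The median log2 difference of these markers was 1.84 (20 listed, none at 0 in every library). Their summed level was 282.6 and 399 CPM in WT against 1496 and 554 CPM in P65KO-labelled libraries. Ly6c2 (7.81 and 12.3 against 21.6 and 13.3 CPM) and Plaur (0.217 and 1.08 against 5.73 and 2.66 CPM) had the same order of libraries as this sum, whose part in these values was not tested. Slfn1 had that order too, with a log2 difference of 0.51 without P65KO-labelled replicate 1. Ly6c1 also had it, but its levels in P65KO-labelled replicates 1 and 2 were close (168 and 164 CPM) where the marker sums were 1496 and 554 CPM, and without P65KO-labelled replicate 1 its log2 difference was 1.56. The part of the marker sum in Slfn1 and Ly6c1 was not tested. Neutrophil markers summed to 63.8 and 54.7 CPM in WT against 157 and 30.1 (0 of 7 tested passed). Ly6g, the neutrophil member of the Ly6 cluster, had 1, 0, 0 and 0 counts. CD8 T cell markers summed to 43.8 and 49.7 CPM in WT against 57.3 and 52.9 (0 of 4 tested passed). Natural killer and innate lymphoid cell markers summed to 172 and 198 CPM in WT against 219 and 158 (of 8 tested, 2 rose and 3 fell). Plasmacytoid dendritic cell markers summed to 182 and 187 CPM against 150.2 and 132 (2 of 4 tested fell), with Siglech at 0, 1, 0 and 0 counts. Bst2, also listed as interferon-stimulated, was among those that fell. It held 96.4 and 106 CPM of these sums in WT against 82.9 and 75.5 CPM in P65KO-labelled libraries. Stromal and endothelial markers summed to 177 and 142 CPM against 225 and 249 (1 of 1 tested rose), nearly all from Pecam1, which T cells also express, with Cdh5 at 0, 1, 0 and 0 counts and 7 of 13 markers at 0 in every library. Their part in the values of the members was not tested.

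**Figure D4:**
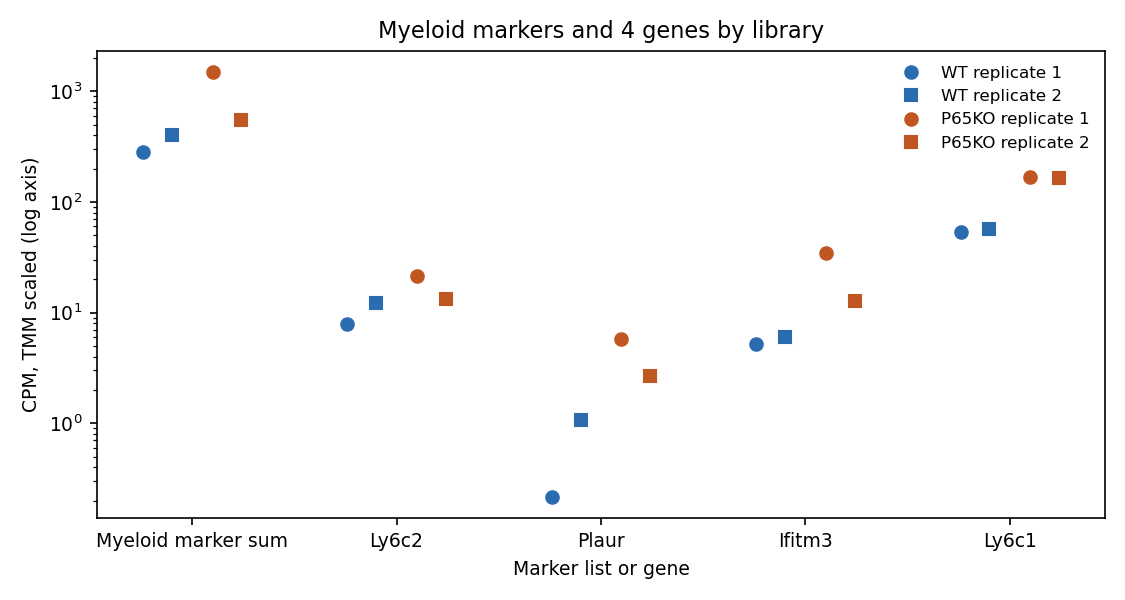
Summed CPM of 20 myeloid markers and CPM of Ly6c2, Plaur, Ifitm3 and Ly6c1 in each library on a log axis; circles are replicate 1 and squares replicate 2. P65KO-labelled replicate 1 is the highest library for the marker sum (1496 CPM), Ly6c2 (21.6 CPM), Plaur (5.73 CPM) and Ifitm3 (34.6 CPM). It is also the highest for Ly6c1, at 168 CPM beside 164 CPM in P65KO-labelled replicate 2. The part of the marker sum in these genes was not tested.

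Interferon-stimulated genes leaned to lower values, and the members did so only in part. Of 61 tested genes of this class, 21 fell, 3 rose and 37 did not pass, with a median log2 difference of -0.26 (edgeR, beside 11.7% of all genes that fell and 9.0% that rose). Oas1a, which makes the activator of RNase L, stood at 60.1 and 71.4 CPM in WT against 29.8 and 20.8 CPM in P65KO-labelled libraries (log2 -1.38, SE 0.16). Parp12, an ADP-ribosyltransferase, and Ifi27l2a, an inner membrane protein, had log2 differences of -1.04 and -0.79. The 3 that rose were Ifitm3, which blocks virus entry, at log2 2.07, the nuclear body gene Sp100 at 0.36, and Ifit2, an RNA-binding antiviral gene, at 0.36. Ifitm3 had 5.21 and 6.03 CPM in WT against 34.6 and 12.6 CPM in P65KO-labelled libraries, in the same order of libraries as the myeloid marker sum, whose part in it was not tested. Without P65KO-labelled replicate 1 the log2 value was 1.16 for Ifitm3 and -1.73 for Parp12, and without P65KO-labelled replicate 2 it was -0.58 for Parp12, where the call ended (edgeR, BH-adjusted p = 0.118). The call of Oas1a held in all 11 other settings, while those of the other 5 named genes each ended without WT replicate 2 and with no filter. The number that passed was 13 with DESeq2 (21.3%, beside 11.8% of all genes) and 5 with no filter (7.58%, beside 4.76%). It was also smaller with any 1 library left out, as was the number over all genes.

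Among 22 genes of interferon receptors and their signalling, 5 fell, 2 rose and 15 did not pass, with a median of -0.02 (edgeR). The shares over all genes tested were 11.7% that fell and 9.0% that rose. Irf1, a transcription factor induced by interferon-gamma, had a log2 difference of -0.29 (edgeR, BH-adjusted p = 0.0398), a call lost in 8 of 11 other settings. The kinase gene Jak1 and Stat3 did not pass, at log2 -0.02 and 0.08. The number of signalling genes that passed was 3 with DESeq2 (13.6%, beside 11.8% of all genes) and 1 with no filter (4.55%, beside 4.76%). It was also smaller with any 1 library left out, as was the number over all genes.

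Genes of lymphocyte quiescence and the naive state, the setting in which Slfn1 and Slfn2 are best known, leaned to higher values. Of 29 tested, 12 rose, 2 fell and 15 did not pass, with a median log2 difference of 0.17 (edgeR). Of all genes tested, 9.0% rose and 11.7% fell. Ccr7, the chemokine receptor of lymph node entry, stood at 396 and 400 CPM in WT against 747 and 759 CPM in P65KO-labelled libraries (log2 0.92, SE 0.09). The genes that fell were Cdkn2c, an inhibitor of cyclin-dependent kinases (log2 -1.35, SE 0.22), and Il7r, the interleukin-7 receptor (log2 -0.92, SE 0.10). The calls of Ccr7 and Il7r held in all 11 other settings, and that of Cdkn2c ended without WT replicate 2, where 9 genes of the list passed.

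**Figure D5:**
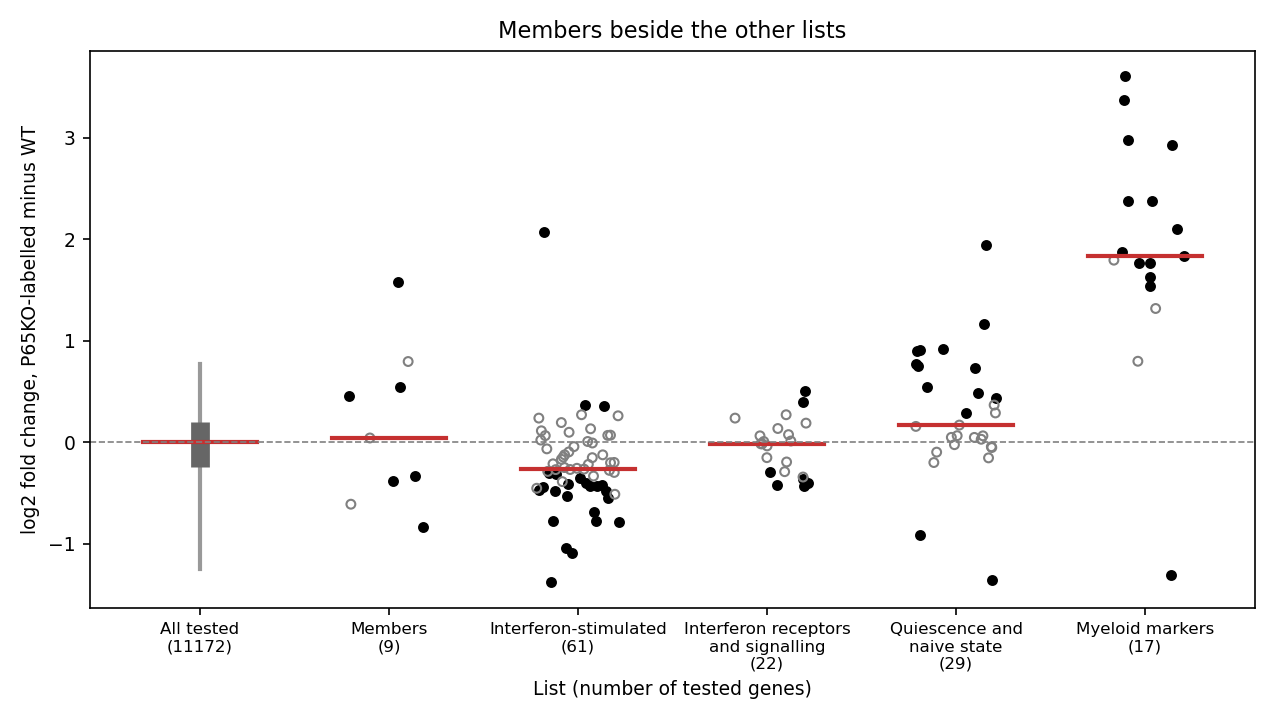
Log2 fold change, P65KO-labelled minus WT, of each tested gene in the member list and 4 other lists; filled points passed the test, open ones did not, and red lines are medians. For all 11172 genes the thick bar spans the 25th to 75th percentile and the thin line the 5th to 95th; the medians are 0.04 for the members, -0.26 for interferon-stimulated genes, -0.02 for interferon signalling, 0.17 for quiescence genes and 1.84 for myeloid markers.

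For the member of each family with the highest mean RPKM, the genes with the most similar profile over the 4 libraries were sought among 8760 other genes of at least 10 CPM. The measure was the root mean square difference of log2 CPM centred on each gene's own mean. The nearest to Slfn2 were Vbp1 (0.00475), a prefoldin subunit gene, Zranb2 (0.0117), a splicing factor gene, and Eif5a (0.0159), a translation factor gene. These 3 did not pass the test between groups (edgeR, BH-adjusted p of 0.738 to 0.865). The nearest to Ly6e were Adcy3 (0.00523), an adenylyl cyclase gene, 2610524H06Rik (0.00954) and Arid4b (0.0110), a chromatin gene. Adcy3 passed at log2 -0.38 (edgeR, BH-adjusted p = 0.0395), a call lost in 7 of 11 other settings. All these genes were picked for likeness over the same 4 libraries that the test compares. Log2 differences near those of Slfn2 and Ly6e therefore follow from that choice, and the test results add no support. With 4 libraries and so many candidates, near matches of this kind are descriptions only.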

How the data were processed

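RNA sequencing of 4 Treg libraries was used, 2 WT and 2 P65KO by sample title. The submitters' processing notes name the tools featureCounts, limma and Subread and the build GRCm38 (mm10). Tool versions, annotation and strand setting: not given in the sources used here. Raw counts by Entrez identifier were deposited for the series, and log2 RPKM values for each library. As deposited, these log2 RPKM values equal the log2 of the count plus 0.5 over gene length and library total, so they hold the same counts: the length so computed was whole within 0.01 for 27178 of 27179 genes.

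Counts were filtered with filterByExpr, scaled by TMM and tested two-sided with edgeR 4.0.16 (glmQLFit and glmQLFTest; R 4.3.3), with p-values adjusted by Benjamini-Hochberg over all 11172 genes tested, threshold 0.05. "Rose" and "fell" mark genes past it. The standard error is the log2 difference over the square root of F. Alternatives used DESeq2 1.42.0, limma-voom 3.58.1, other scalings and filters, a replicate block, and each library left out with the same genes tested. On simulated counts for 11172 genes the script called 41.8% of genes changed 1.5-fold, 83.6% changed 2-fold and 92.3% changed 4-fold, with 3 false calls. Only 200 genes were changed there, and every gene had the dispersion of the fitted trend. In the data 20.7% of genes passed, so these shares check the script and do not measure the power of this comparison. A floor of 3 counts was 0.646 to 0.664 CPM. Intervals and floors cover what the 4 libraries show and counting error only.

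The members and lists were chosen with earlier results of these data known. Named were all members, the 6 tested relatives and 4 signalling genes of highest CPM, the 3 interferon-stimulated and 2 quiescence genes of largest change in each direction at 10 CPM or more, and 3 nearest profiles per family. Of these, 1 signalling gene and 1 quiescence gene are not reported here. Other markers are named where they move with a result. Of 273 list entries, 266 were in the table. Coordinates and promoters came from RefSeq (GRCm38.p6), matched by Entrez identifier and symbol, and transcripts from GENCODE M21 of the same build.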

Additional observations from a re-analysis of the deposited data

How the results depend on the processing

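Slfn1, Ly6a and Ly6c1 passed in all 11 other settings. Of 99 alternative log2 values of the members, 96 kept their sign, the exceptions being values of Slfn2, which never passed. Of 286 values of the other named genes, 277 kept theirs, and no called gene changed sign. The number of members that passed, 6, was 3 with no filter on low counts (beside 4.76% of genes), 3 without WT replicate 2 (beside 8.20%) or without P65KO-labelled replicate 1 (beside 15.0%), and 3 to 4 over the 4 libraries left out. All genes that passed were 2310, against 1318 with DESeq2, 771 with no filter, and 916 to 1676 over the libraries left out. For interferon-stimulated genes 24 became 13 with DESeq2, 5 with no filter and 6 to 15 over the libraries left out. For interferon signalling 7 became 3 with DESeq2, 1 with no filter and 1 to 3 over the libraries left out, and for quiescence 14 became 9 to 12. The 2 relatives became 0 with DESeq2, 0 with no filter and 0 to 2 over the libraries left out, with unadjusted p under 0.05 for 2 (DESeq2), 3 (edgeR, no filter), and 3, 4 and 4 (edgeR without WT replicate 1, WT replicate 2 and P65KO-labelled replicate 1). With no filter more genes were tested, and with a library left out fewer samples; otherwise the cause was not tested. The replicate number as a block gave 7 members and 2319 genes, adding Ly6c2 (edgeR, BH-adjusted p = 0.0121); no label says that equal numbers pair libraries, and deviations of equally numbered replicates correlated at -0.138 across genes. Slfn3, Ly6c2 and the tested relatives had under 100 counts in each library; whether depth set their calls was not tested.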
